A study of Mus musculus with 6 samples.

Results

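The genes described here are 8 genes of sterol synthesis and its control, chosen by name from the 47729 genes of a bulk RNA-seq count table: Hmgcs1, Idi1, Fdps, Sqle, Cyp51 and Sc5d, which encode enzymes, and Srebf2 and Insig1, which encode regulators. None of the 8 encodes an uptake receptor, so uptake is described below from other genes of the pathway. All 8 were among the 15780 genes that passed the filter on low counts. Spleen CD4 T cells of mice were sorted and sequenced as 6 libraries, 2 in each of 3 groups. WT cells were mature naive cells of wild type mice with the surface phenotype CD3+CD4+CD25-CD45RBhi. ON and OFF cells were immature naive cells of RBPJind mice (CD3+CD4+CD25-CD45RBint), in which RBPJ, the DNA-binding partner of Notch in transcription, is induced by doxycycline (Dox). Dox water was given for 4 weeks in ON, whose cells are called Notch responsive during maturation. In OFF it was given for 3 weeks and then stopped for 1 week of maturation in the periphery, and these cells are called Notch unresponsive. Every sample carries the treatment label Dox, with no duration given for WT. ON and OFF share genotype and gate but differ in Dox exposure together with the Notch response. Effects of Dox itself and of the Notch response cannot be told apart there. ON and OFF each differ from WT in genotype, gate and maturity at once, which cannot be told apart. Whether the 2 libraries in each group were taken from different mice is not stated, so the tests weigh differences against a spread that may be technical.

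Animal cells make cholesterol from acetyl-CoA through mevalonate, isoprenoid units, squalene and lanosterol. When sterols in the endoplasmic reticulum fall, SCAP escorts the transcription factor SREBP2 (the product of Srebf2) to the Golgi for cleavage, and the freed fragment raises the genes of the pathway. INSIG1 holds SCAP back when sterols are plentiful, and its own gene is a target of SREBP. T cells are known to raise this pathway when they are activated and prepare to divide, and to export sterols through LXR targets when at rest.

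Promoter sequence shows what these genes share apart from their counts. RefSeq windows of 300 bases on GRCm38.p6 (250 before to 50 after the start of transcription) were at hand for 6 of the 8 genes, Hmgcs1, Insig1, Idi1, Cyp51, Sc5d and Srebf2. They were searched on both strands for 2 nested forms of the sterol regulatory element, TCACNCCAC and the CACNCCAC within it, for the CCAAT box bound by NF-Y, and for the GC box GGGCGG. The CCAAT box was found in 6 of 6 windows, against 37.4% of the 32851 windows of all genes, and GGGCGG in 6 of 6 against 35.7%. CACNCCAC was found in 2 of 6 (Hmgcs1 and Insig1) against 6.24%, and TCACNCCAC in 1 of 6 (Hmgcs1) against 1.24%. A looser form, at most 1 base away from TCACNCCAC, was searched after these results were seen and was found in 4 of 6 windows against 24.2% of all. The looser form takes in both earlier forms, so Hmgcs1 and Insig1 had to match it. Only Cyp51 and Srebf2 were matched by it alone. A match is a description of the letters only. The upstream parts of Hmgcs1 and Srebf2 are shown because the first holds the full element and the second encodes the factor that binds it. Both are printed 5′ to 3′ on the strand of the gene (+ for both), in lower case, with CCAAT (or ATTGG, its reverse complement) and sterol element forms, exact or 1 base away, in capitals, at chr13:119690101-119690350 and chr15:82147019-82147180.
Hmgcs1: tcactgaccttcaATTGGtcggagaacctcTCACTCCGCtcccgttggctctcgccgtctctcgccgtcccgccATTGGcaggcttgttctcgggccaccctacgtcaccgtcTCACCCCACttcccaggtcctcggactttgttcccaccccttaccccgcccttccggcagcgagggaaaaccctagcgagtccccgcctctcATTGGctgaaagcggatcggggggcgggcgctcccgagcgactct
Srebf2: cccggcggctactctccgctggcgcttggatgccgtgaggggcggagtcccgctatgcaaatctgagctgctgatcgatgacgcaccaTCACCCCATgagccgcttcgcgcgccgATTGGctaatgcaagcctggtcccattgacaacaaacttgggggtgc

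In Hmgcs1 the element TCACCCCAC spans bases -137 to -129 from the start, between CCAAT boxes. In Srebf2 the near form TCACCCCAT spans -162 to -154. The other windows are shown by 30 bases around the match nearest the start, with that match alone in capitals: CACNCCAC on the opposite strand for Insig1 (chr5:28071392-28071421, + strand), and CCAAT for Idi1 (chr13:8885580-8885609, + strand), Cyp51 (chr5:4104709-4104738, - strand) and Sc5d (chr9:42264307-42264336, - strand). Those of Insig1, Idi1 and Cyp51 lie inside exons of the GENCODE annotation.
Insig1: cgtgtagtgtcGTGGCGTGtaccttccatg
Idi1: gtccaaggtgccATTGGctggcgaccgaca
Cyp51: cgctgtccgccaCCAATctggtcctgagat
Sc5d: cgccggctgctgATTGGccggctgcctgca

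Counts assigned to genes ran from 17025551 to 19319183 per library. Reads not aligned made up 18.8% to 21.8% in WT, 9.34% to 14.8% in ON and 22.1% to 24.3% in OFF. Genes with a count numbered 30592 to 33138 in WT, 28288 to 29456 in ON and 24210 to 25061 in OFF. The part of these differences in the results below was not tested. As a check of the ON label, Rbpj was at 98.2 and 79.6 CPM (counts scaled to library size with TMM factors) in ON, 29.8 and 31.7 in OFF and 36.1 and 35.3 in WT. Its log2 fold change was 1.32 for ON against WT (adjusted p = 0.000535 by edgeR) and -0.22 for OFF against WT (0.422). Rbpj RNA in OFF was thus not called different from WT, and its level cannot show whether OFF cells lacked the Notch response. The CD4 T cell markers were high in all libraries (Cd4 at 604 to 702 CPM). Lists of 12 cell division genes and of marker genes of other cells were summed per library, and no gene of these lists was at 0 in all 6 libraries. Cell division genes came to 247 to 266 CPM in WT, 746 to 1476 in ON and 739 to 1142 in OFF, with Mki67 the most abundant (38.4 to 626). Effector and memory genes came to 67.4 to 105 CPM in WT, 670 to 946 in ON and 318 to 587 in OFF (most abundant Il2rb), and regulatory T cell genes to 42.3 to 51.1, 187 to 267 and 223 to 400.2 (most abundant Ikzf2). CD8 and NK cell genes came to 23.8 to 32.8, 71.0 to 93.3 and 60.5 to 77.6 (most abundant Eomes), B cell genes to 187 to 202, 152 to 175 and 211 to 256 (most abundant Ighm), myeloid genes to 18.1 to 18.5, 47.2 to 51.7 and 38.7 to 54.6 (most abundant Lyz2), and erythroid and platelet genes to at most 1.98 in any library (most abundant Alas2). Against WT, 11 of 12 cell division, 9 of 10 effector and memory and 5 of 5 regulatory T cell genes were called higher in ON. So were 4 of 9 B cell, 4 of 6 tested myeloid and 2 of 7 CD8 and NK cell genes, beside 9.68% of all tested genes. The B cell gene Ighm was called lower in ON (log2 fold change -0.49, adjusted p = 0.0320 by edgeR). In OFF the counts called higher were, in the same order, 7 of 12, 8 of 10, 4 of 5, 8 of 9, 2 of 6 and 2 of 7, beside 4.70% of all. The part of these cells in the results below was not tested. In bulk RNA fewer cells of a type and less RNA per cell cannot be told apart.

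The 8 genes differed widely in level. Per kilobase of exon, averaged over the 6 libraries, Srebf2 was the highest at 27.0 CPM per kb (24.3 to 30.4), followed by Hmgcs1 at 7.50 (5.48 to 11.2), Insig1 at 6.93 (5.19 to 8.47), Cyp51 at 5.91 (4.75 to 7.58), Sc5d at 3.70 (3.36 to 4.45), Idi1 at 3.13 (2.12 to 4.10), Sqle at 2.93 (2.03 to 4.44) and Fdps at 0.312 (0.199 to 0.442). The ranges of Hmgcs1, Insig1 and Cyp51 overlapped one another, as did those of Sc5d, Idi1 and Sqle, while Srebf2 and Fdps stood apart from all the rest. Raw counts per library were 3152 to 3661 for Srebf2, 441 to 853 for Hmgcs1, 124 to 239 for Idi1 and 188 to 410 for Sqle, but 14 to 34 for Fdps.

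Of the enzymes, Sqle and Idi1 rose in OFF against WT, and no other of the 8 genes was called in any comparison. Sqle encodes squalene epoxidase, a rate-limiting enzyme of the late pathway (ENSMUSG00000022351; GRCm38 chromosome 15, 59315077 to 59331192). Its level was 11.2 and 11.3 CPM in the WT libraries, 18.2 and 14.3 in ON and 18.0 and 24.6 in OFF. Every ON and OFF library was above both WT libraries, whereas ON and OFF overlapped. Sqle was 1.88-fold higher in OFF than in WT (log2 fold change 0.91 ± 0.20, SE; adjusted p = 0.0309 by edgeR's quasi-likelihood test), with 0.52 ± 0.21 for ON against WT (adjusted p = 0.121) and 0.39 ± 0.20 for OFF against ON (0.313), the last being 0.13 without OFF 2 and 0.61 without OFF 1. Its call was lost without WT 1 (log2 fold change 0.92, adjusted p = 0.195) or WT 2 (0.95, 0.132), where the value stayed as large, and without OFF 2, where it was smaller (0.66, 0.216). Leaving out WT 1 or WT 2 also lowered the calls over all genes, from 1078 to 223 or 224 in OFF against WT and from 2342 to 494 or 368 in ON against WT. The call of Sqle was lost too with limma-voom (0.0586), a mean CPM of at least 1 as the filter (0.0512) or the replicate block (0.0612). A stretch of 224 bases in Sqle is 92.9% identical to one in Sdccag8, a centrosome gene.

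Idi1 encodes the isomerase that makes dimethylallyl pyrophosphate, the starter unit of isoprenoids (ENSMUSG00000058258; chromosome 13, 8885501 to 8892451). It was at 7.42 and 8.55 CPM in WT, 12.01 and 10.5 in ON, then 12.9 and 14.4 in OFF, so that the 3 groups did not overlap and stood in the order WT, ON, OFF. The rise from WT to OFF was 1.70-fold (log2 fold change 0.77 ± 0.19; adjusted p = 0.0431 by edgeR). ON against WT gave 0.49 ± 0.19 (adjusted p = 0.114) and OFF against ON 0.27 ± 0.18 (0.442). The call in OFF was lost without WT 1 (0.68, adjusted p = 0.316), WT 2 (0.91, 0.132), OFF 1 (0.88, 0.0641) or OFF 2 (0.68, 0.242), and in 10 of the 16 alternatives in all, among them DESeq2 (0.0540), RLE scaling (0.0501) and limma-voom (0.0654). Idi1 has processed copies in the genome, of which Gm13502 is identical over 684 aligned bases and Gm35570 97.7% identical over 681, so its counts are uncertain. These copies themselves held at most 2 and 4 counts in any library.

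Hmgcs1, the enzyme that makes HMG-CoA at the entry of the pathway (ENSMUSG00000093930; chromosome 13, 119690379 to 119708260), differed most between OFF and ON among the 8. It was at 32.1 and 25.6 CPM in WT, 34.3 and 25.2 in ON, then 38.3 and 51.3 in OFF. Both OFF libraries were above all 4 others, and WT and ON overlapped. The log2 fold change was 0.59 ± 0.20 for OFF against ON (adjusted p = 0.157 by edgeR; unadjusted p = 0.0147), 0.63 ± 0.20 for OFF against WT (0.0950) and 0.04 ± 0.20 for ON against WT (0.910). The difference of OFF and WT passed the threshold without ON 1 (0.66, adjusted p = 0.0412), ON 2 (0.65, 0.0450) or OFF 1 (0.86, 0.0431), but was 0.51 without WT 2 (0.361) and 0.40 without OFF 2 (0.451). That of OFF and ON was 0.37 without ON 2 (0.403), 0.34 without OFF 2 (0.478) and 0.84 without ON 1 (0.0649). An annotated antisense transcript overlaps 557 bases of its exons.

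**Figure D1:**
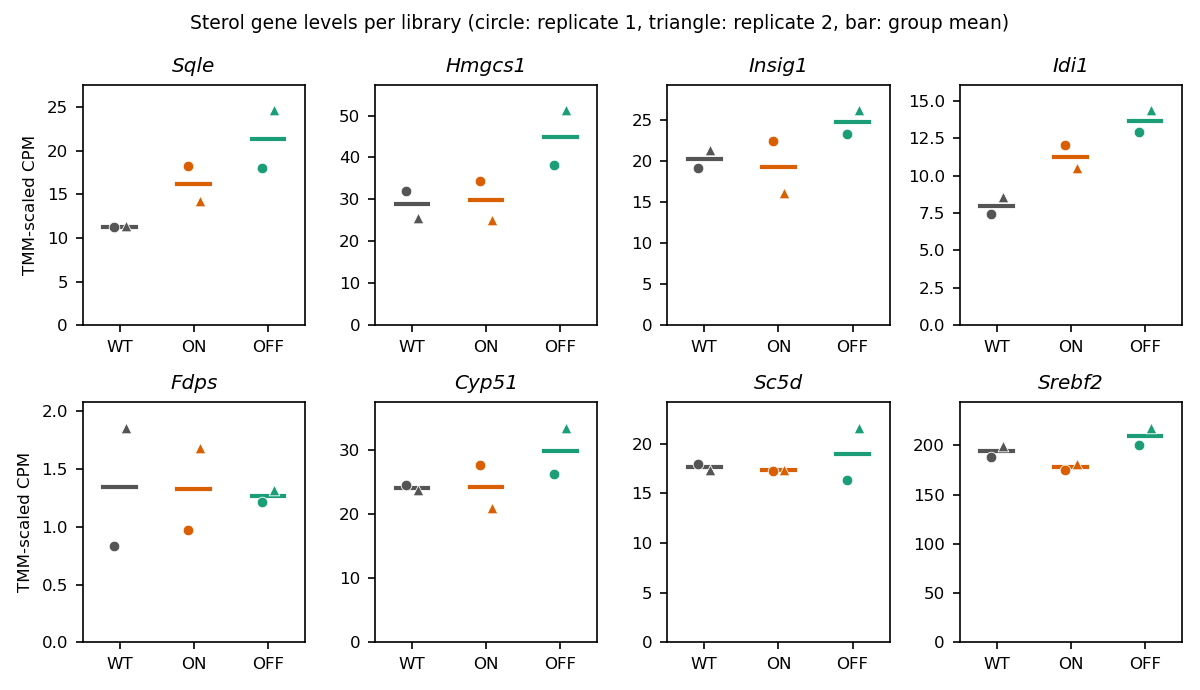
TMM-scaled CPM (y axis, from 0, scale set per gene) of the 8 sterol genes in WT, ON and OFF; circles are replicate 1, triangles replicate 2 and bars group means. Sqle and Idi1 are lowest in both WT libraries, Hmgcs1 is highest in both OFF libraries (38.3 and 51.3), and Fdps stays under 2 CPM.

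The later enzymes and Fdps showed no called difference. Cyp51, the lanosterol demethylase (ENSMUSG00000001467; chromosome 5, 4081145 to 4104746), was at 24.5 and 23.7 CPM in WT, 27.6 and 20.96 in ON, then 26.3 and 33.5 in OFF. Its OFF libraries lay above WT but overlapped ON (log2 fold change 0.31 ± 0.18 for OFF against WT, adjusted p = 0.359 by edgeR, and 0.30 ± 0.18 for OFF against ON, 0.388). Without OFF 2 these were 0.12 and 0.095, and OFF against ON was 0.10 without ON 2 and 0.52 without ON 1. Exons of Akap9, a scaffold protein gene on the other strand, overlap 166 bases of Cyp51, and because the strand setting of the counting is not given, reads there cannot be assigned to either. Sc5d, sterol C5-desaturase, which acts near the end of the pathway (ENSMUSG00000032018; chromosome 9, 42251595 to 42264256), was at 18.0 and 17.4 CPM in WT, 17.3 in either ON library and 16.3 and 21.6 in OFF, with groups that differed by at most 0.13 on the log2 scale (SE 0.17). Fdps, which makes farnesyl pyrophosphate at the branch to sterols and prenylated proteins (ENSMUSG00000059743; chromosome 3, 89093588 to 89101959), was at 0.837 and 1.86 CPM in WT, 0.971 and 1.68 in ON, then 1.21 and 1.32 in OFF. The 3 groups of Fdps overlapped, and its fold changes had an SE of 0.48 to 0.50, so a change of the size seen in Sqle was not detectable at these counts. Processed copies of Fdps such as Gm3571 (98.9% identical over 1062 aligned bases) and Gm5873 (96.7% over 1066) make its low count uncertain. So does Gm43738, annotated as protein coding, whose exons overlap 1124 bases of Fdps on the same strand. Gm43738 is 100% identical over 929 aligned bases and held at most 1 count in any library. How reads shared by these genes were counted is not given.

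Of the regulators, Srebf2 (ENSMUSG00000022463; chromosome 15, 82147181 to 82205379) was at 189 and 199 CPM in WT, 175 and 181 in ON, then 200.5 and 218 in OFF. ON was below WT and OFF above both, without overlap, but the steps were small and none was called: 0.23 ± 0.11 for OFF against ON (adjusted p = 0.297 by edgeR), -0.12 ± 0.11 for ON against WT (0.503) and 0.11 ± 0.11 for OFF against WT (0.639). Insig1 (ENSMUSG00000045294; chromosome 5, 28071363 to 28078662) was at 19.2 and 21.3 CPM in WT, 22.5 and 16.1 in ON, then 23.3 and 26.2 in OFF. Both OFF libraries of Insig1 were above the other 4, which overlapped one another (0.36 ± 0.18 for OFF against ON, adjusted p = 0.315; 0.29 ± 0.18 for OFF against WT, 0.410). For OFF against ON, Insig1 was 0.13 without ON 2 and 0.63 without ON 1 (adjusted p = 0.754 and 0.0832). The value of Srebf2 for OFF against ON was 0.15 without OFF 2.

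Between OFF and ON, which differ in Dox and in the Notch response together, edgeR called 0 of the 8 genes. Over the 15780 genes tested it called 1.03% (0.602% higher and 0.425% lower in OFF). Hmgcs1 had an unadjusted p under 0.05, as did 3008 of the 15780 genes, and DESeq2 and limma-voom called 0 of the 8. The log2 fold changes of 7 of the 8 were above 0, with a median of 0.29, against 50.1% above 0 and a median of 0.00 over all tested genes. In 4 of the 8 (Hmgcs1, Insig1, Idi1 and Srebf2) both OFF libraries lay above both ON libraries, which held for 23.4% of all tested genes, and the opposite held for 0 of 8, against 23.3%. This lean was not particular to the 8. Of 12 fatty acid synthesis genes, described below, 10 were above 0 (median 0.22). In 8 of these 12 both OFF libraries lay above both ON libraries, and in 0 below. Of 12 tested uptake and transport genes 11 were above 0, with 5 higher and 1 lower in OFF without overlap. Between ON and WT edgeR, DESeq2 and limma-voom called 0 of 8, beside 14.8% of all genes by edgeR (9.68% higher and 5.16% lower in ON). Sqle and Idi1 had an unadjusted p under 0.05, as did 4812 of the 15780 genes. The median was -0.01, against -0.02 over all genes, and both ON libraries lay above WT in 2 genes and below in 2, against 29.8% and 30% of all. Between OFF and WT, 2 of 8 were called higher, beside 4.70% of all genes called higher (2.14% lower, 6.83% in either direction); DESeq2 called 1, Sqle, and limma-voom 0. The median was 0.30, against 0.01 over all genes, and both OFF libraries lay above WT in 6 of 8, against 29.8% of all, and below in 0 of 8, against 25.8%. These comparisons share libraries, so their values are not independent of one another.

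**Figure D2:**
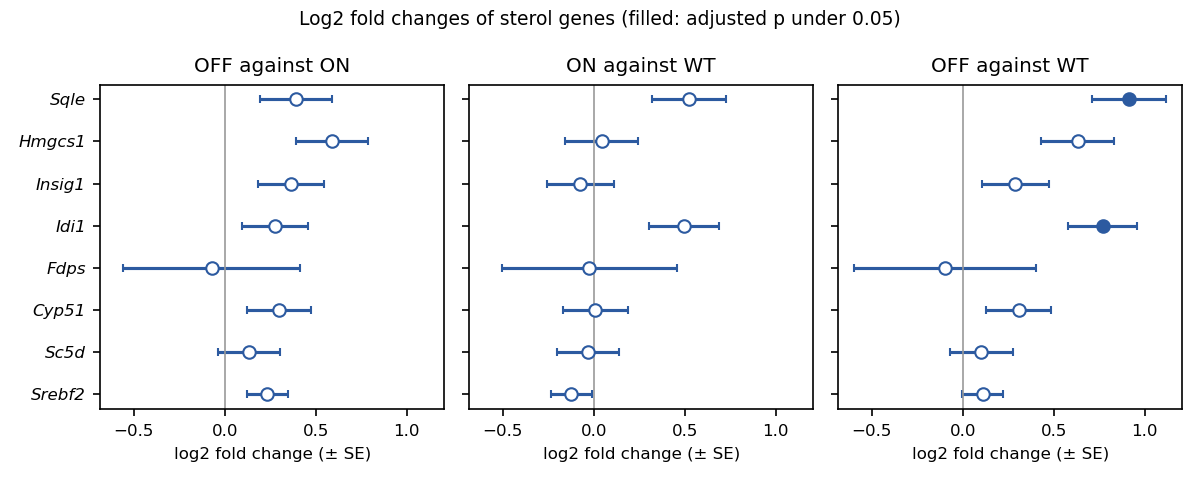
Log2 fold changes (x axis, points) with their SE (bars) of the 8 genes in the 3 comparisons; filled points have an adjusted p under 0.05. Only Sqle and Idi1 in OFF against WT are filled (0.91 and 0.77), and the bars of Fdps are the widest.

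The libraries within a group were also unequal. OFF 2 was above OFF 1 in 8 of the 8 genes, against 50.9% of all tested genes, and ON 1 above ON 2 in 5 of 8, against 50.4%. Both held together in the same 5 genes, Sqle, Hmgcs1, Insig1, Idi1 and Cyp51, against 31.1% of all tested genes. The 12 cell division genes had the same order in 12 of 12: Mki67, a marker of dividing cells, was at 626 and 241 CPM in ON 1 and ON 2 and 277 and 475 in OFF 1 and OFF 2, and Top2a at 322 and 188 and then 175 and 268. As a mean of scaled log2 levels, in SD units of each gene, the 8 sterol genes stood at -0.64 and -0.26 in WT, -0.09 and -0.57 in ON, then 0.22 and 1.34 in OFF. The cell division genes stood at -1.06 and -1.26, 1.18 and 0.25, and 0.14 and 0.75. ON 1 was thus the highest library for cell division and OFF 2 for the sterol genes. Over the 6 libraries, as a description, Pearson's r with the cell division genes was 0.85 for both Sqle and Idi1, 0.52 for Hmgcs1 and -0.13 for Srebf2. For the others it was 0.50 for Cyp51, 0.32 for Insig1, 0.23 for Sc5d and -0.20 for Fdps. Sqle, Idi1 and the cell division genes were all lowest in WT, so r for these 2 genes also holds the difference between groups. The part of dividing cells in the rise of Sqle and Idi1 was not tested. With the mean of the other 7, r was 0.86 for Cyp51, 0.84 for Hmgcs1, 0.82 for Sqle and -0.13 for Fdps, over libraries that share their groups.

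**Figure D3:**
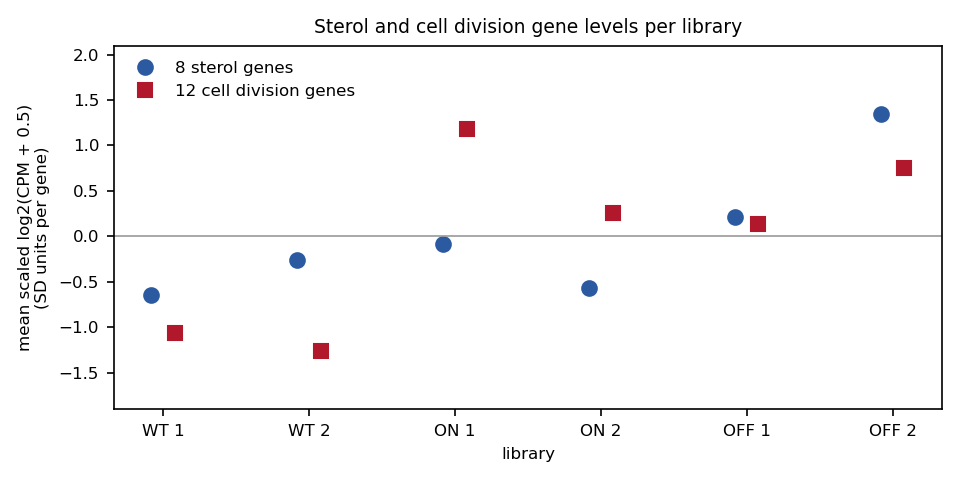
Mean scaled log2(CPM + 0.5) per library (y axis, in SD units of each gene) of the 8 sterol genes (circles) and 12 cell division genes (squares). The sterol genes are highest in OFF 2 (1.34) and the cell division genes in ON 1 (1.18).

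The rest of the synthesis pathway was read from a list of 22 enzymes and partner proteins, 6 of them among the 8 genes above. All 22 were tested. Of these 0 were called between OFF and ON (Hmgcs1 at an unadjusted p under 0.05; none by either DESeq2 or limma-voom; median log2 fold change 0.14), 2 rose and 0 fell in ON against WT (median 0.05), and 3 rose and 0 fell in OFF against WT (median 0.29). Over all tested genes 9.68% were called higher in ON and 4.70% in OFF, and the medians were 0.00, -0.02 and 0.01 for the 3 comparisons. In OFF against ON 3008 of the 15780 tested genes had an unadjusted p under 0.05. Besides Sqle and Idi1 the third in OFF was Fdft1, squalene synthase, at 20.3 and 20.2 CPM in WT, 27.8 and 25.6 in ON, then 27.5 and 32.4 in OFF (log2 fold change 0.56 ± 0.15 in OFF against WT, adjusted p = 0.0495 by edgeR). This call was lost without WT 1 (0.58, adjusted p = 0.287), WT 2 (0.59, 0.195) or OFF 2 (0.44, 0.337), with DESeq2 (0.0756) and with limma-voom (0.0721), and in 11 of the 16 alternatives in all. In ON the risers were the kinase gene Pmvk and the isomerase gene Ebp. Pmvk was at 6.34 and 5.93 CPM in WT and 10.3 and 10.01 in ON (0.72 ± 0.20 for ON against WT, adjusted p = 0.0423 by edgeR). In OFF it was at 8.43 and 10.3, above WT and overlapping ON (0.61 ± 0.21 for OFF against WT, adjusted p = 0.119). Ebp was at 14.1 and 14.0 in WT, 21.6 and 24.6 in ON, then 15.8 and 20.01 in OFF (0.71 ± 0.17 for ON against WT, adjusted p = 0.0230). The call of Pmvk was lost in 8 of the 16 alternatives: without WT 1 (0.78, adjusted p = 0.196), WT 2 (0.70, 0.249), ON 1 (0.73, 0.0787) or ON 2 (0.77, 0.0725), and with DESeq2 (0.0619), limma-voom (0.0525), upper quartile scaling (0.0591) or the replicate block (0.0896). That of Ebp was lost in 3, without WT 1 (0.72, 0.154), WT 2 (0.73, 0.166) or ON 2 (0.64, 0.0671).

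**Figure D4:**
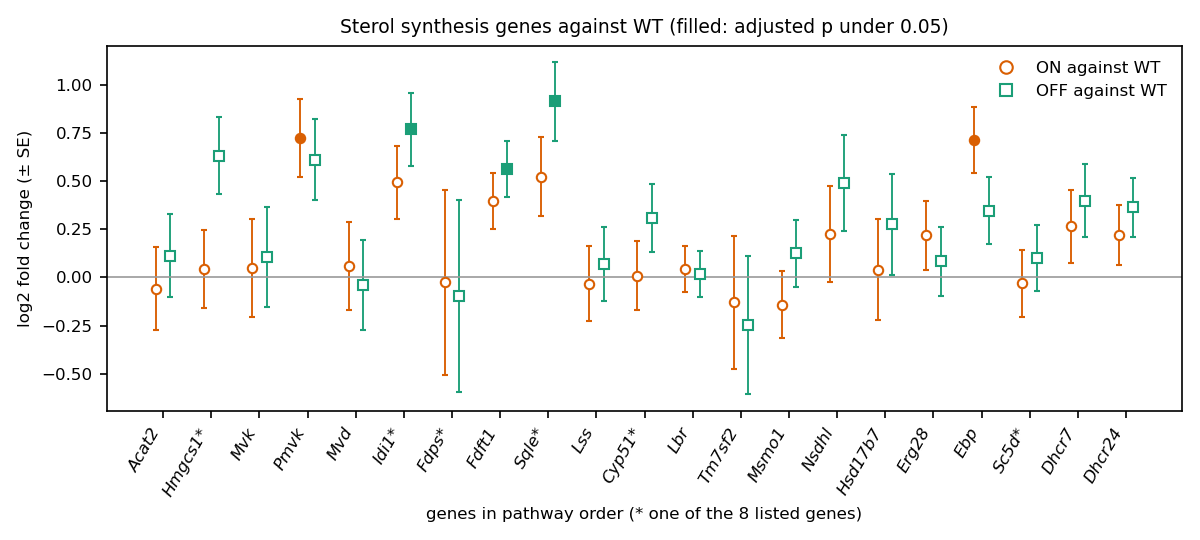
Log2 fold changes (y axis) with their SE (bars) of 21 sterol synthesis genes in pathway order, ON against WT (circles) and OFF against WT (squares); asterisks mark genes of the 8. Filled points, with an adjusted p under 0.05, are Pmvk (0.72) and Ebp (0.71) in ON, and Idi1 (0.77), Fdft1 (0.56) and Sqle (0.91) in OFF.

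Of 13 genes that encode or control SREBP, 0 were called in any of the 3 comparisons, with 1, 2 and 1 at an unadjusted p under 0.05 for OFF against ON, ON against WT and OFF against WT and none called by either DESeq2 or limma-voom. Srebf2 and Insig1 are among these 13, which leaves 11 outside the 8 genes above. Over all 15780 tested genes, edgeR called 1.03%, 14.8% and 6.83% in these comparisons, and 3008, 4812 and 3491 had an unadjusted p under 0.05. Scap, the escort of SREBP, was at 60.2 and 56.6 CPM in WT, 45.3 and 58.6 in ON, then 55.1 and 52.6 in OFF. Srebf1, which encodes the sister factor of fatty acid synthesis, was at 64.7 and 63.3, 63.3 and 75.2, and 75.3 and 78.3, with both OFF libraries above all others by small steps (adjusted p = 0.551 against ON and 0.256 against WT). Insig2, the second INSIG gene, had group means of 10.05, 9.86 and 9.86 CPM in WT, ON and OFF.

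Uptake and transport genes numbered 13, of which Vldlr was too low to test. Of the 12 tested, 0 were called between OFF and ON by edgeR, DESeq2 or limma-voom (0 at an unadjusted p under 0.05), 1 rose in ON against WT and 1 in OFF against WT, in both cases Gramd1b, which encodes a protein that carries cholesterol from the plasma membrane to the endoplasmic reticulum. Of all tested genes, 9.68% were called higher in ON and 4.70% in OFF against WT. Between OFF and ON 1.03% were called, and 3008 of the 15780 had an unadjusted p under 0.05. Gramd1b was at 55.2 and 64.8 CPM in WT, 86.4 and 82.9 in ON, then 95.1 and 97.8 in OFF, in 3 groups that did not overlap. Its log2 fold change was 0.50 ± 0.12 in ON (adjusted p = 0.0266 by edgeR) and 0.68 ± 0.12 in OFF (0.0128) against WT. The call in ON was lost without WT 1 (0.39, adjusted p = 0.266) or WT 2 (0.63, 0.107) and with the replicate block (0.0632), and that in OFF without WT 1 (0.59, 0.184), WT 2 (0.84, 0.0580) or OFF 2 (0.66, 0.0681).

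Of 12 genes of sterol efflux, storage and oxysterols 10 were tested, and 0 were called between OFF and ON or between OFF and WT by edgeR, DESeq2 or limma-voom (2 and 3 at an unadjusted p under 0.05). In these 2 comparisons edgeR called 1.03% and 6.83% of all tested genes, and 3008 and 3491 of the 15780 had an unadjusted p under 0.05. In ON against WT 2 rose and 1 fell, beside 9.68% of all tested genes called higher and 5.16% called lower. Abca1, a sterol exporter and LXR target, fell, from 61.1 and 50.4 CPM in WT to 17.7 and 32.1 in ON, with 45.5 and 29.0 in OFF (log2 fold change -1.16 ± 0.30, adjusted p = 0.0416 by edgeR). That call was lost without WT 1 (-1.01, adjusted p = 0.224), WT 2 (-1.28, 0.146) or ON 1 (-0.78, 0.0942), with no filter on low counts (0.108) and with the replicate block (0.0792). Soat2, a sterol esterifying enzyme, rose from 0.658 and 0.407 CPM to 3.99 and 2.48 (adjusted p = 0.00881), with 1.04 and 0.601 in OFF; its call was lost without WT 1 (log2 fold change 2.97, adjusted p = 0.0573) or WT 2 (2.30, 0.107). For OFF against ON, Soat2 had a log2 fold change of -1.96 ± 0.44 (adjusted p = 0.0709), which passed without ON 2 (-2.28, 0.0376) but had an adjusted p of 0.192 without OFF 2 (-1.65). Apoe, an apolipoprotein of sterol transport also made by macrophages, rose from 8.67 and 13.0 CPM in WT to 22.8 and 25.0 in ON (adjusted p = 0.00719 by edgeR). That call was lost without WT 1, where the log2 fold change was 0.89. In OFF Apoe was at 19.3 and 16.3 CPM (log2 fold change 0.72 against WT, adjusted p = 0.0718). Myeloid markers stood higher than in WT in both ON and OFF, as given above, and their part in Apoe was not tested. Abcg1, another exporter, and Nr1h2, which encodes LXR beta, were not called: Abcg1 had group means of 107, 91.9 and 107 CPM and Nr1h2 of 69.7, 88.6 and 62.8 in WT, ON and OFF. For Nr1h2 the log2 fold change was -0.50 in OFF against ON (adjusted p = 0.150) and 0.35 in ON against WT (0.179). Both passed the threshold without ON 1 (-0.68, 0.0415, and 0.56, 0.0390), and both were smaller without ON 2 (-0.29, 0.362, and 0.15, 0.549).

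Of the 14 genes of the isoprenoid branch, 0 were called in any comparison by edgeR, DESeq2 or limma-voom (1, 3 and 0 at an unadjusted p under 0.05 for OFF against ON, ON against WT and OFF against WT). The 12 fatty acid synthesis genes, in part targets of SREBP1, had 0 called between OFF and ON by edgeR (4 at an unadjusted p under 0.05; 1 by DESeq2, 0 by limma-voom), 1 lower in ON and 2 higher in OFF against WT. Among all 15780 tested genes, edgeR called 1.03%, 14.8% and 6.83% in OFF against ON, ON against WT and OFF against WT. Against WT, 5.16% were called lower in ON and 4.70% higher in OFF. An unadjusted p under 0.05 was found for 3008, 4812 and 3491 of them in the 3 comparisons. Both fatty acid synthesis genes that rose in OFF were desaturase genes. Scd2 was at 50.3 and 39.8 CPM in WT, 55.5 and 57.1 in ON, then 81.3 and 99.9 in OFF, with no overlap of the groups (OFF against WT 1.01 ± 0.15, adjusted p = 0.00545 by edgeR; lost without WT 2, at 0.88 and 0.0689). For OFF against ON its log2 fold change was 0.69 ± 0.15 (adjusted p = 0.0697), which DESeq2 called (0.0116), and without OFF 2 it was 0.51 (0.199). Scd1 was at 0.957 and 0.698 CPM in WT, 2.81 and 2.23 in ON, then 3.81 and 7.03 in OFF (OFF against WT 2.70 ± 0.45, adjusted p = 0.00853; lost without WT 1, at 2.95 and 0.0564, or WT 2, at 2.52 and 0.0762). For ON against WT Scd1 had 1.60 ± 0.50 (adjusted p = 0.0585), which passed without OFF 1 (0.0291) or OFF 2 (0.0279) and with DESeq2 (0.0214), the older quasi-likelihood method (0.0344) or only the 4 libraries (0.0353). Without WT 2 it was 1.41 (0.284). Acss2, which makes acetyl-CoA from acetate, fell from 52.3 and 57.9 CPM in WT to 27.2 and 40.9 in ON (-0.69 ± 0.19, adjusted p = 0.0412). It had 47.6 and 38.2 in OFF, and its call was lost without WT 1 (-0.76, adjusted p = 0.141), WT 2 (-0.60, 0.252) or ON 1 (-0.41, 0.144), with no filter on low counts (0.101) and with the replicate block (0.0699).

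Outside these lists, the 10 named protein-coding genes whose levels over the 6 libraries followed the mean scaled profile of the 8 genes most closely were Tprkb, Dnaaf5, Memo1, Rgs2, Lgals9, Ap2b1, Acbd6, Itm2a, Clec2i and Rtn4. Pearson's r ran from 0.99 for Tprkb to 0.97 for Rtn4. They were picked from 8632 genes with a mean of at least 5 CPM over only 6 libraries, so high values of r are to be found among them for that reason too. Tprkb was at 14.9 and 15.6 CPM in WT, 16.5 and 14.9 in ON, then 17.7 and 21.2 in OFF. Of the 10, Itm2a was called, in OFF against WT, with 40.6 and 39.8 CPM in WT, 48.4 and 43.1 in ON, then 55.9 and 95.4 in OFF (log2 fold change 0.91 ± 0.22, adjusted p = 0.0394 by edgeR). That call was lost in 9 of the 16 alternatives, among them without WT 1 (0.216), WT 2 (0.150), ON 1 (0.0502), ON 2 (0.0733) or OFF 2, where the value was 0.47 (0.235). For OFF against ON, Itm2a had 0.73 (adjusted p = 0.130), which passed with DESeq2 (0.0456) and without OFF 1 (1.07, 0.0135) and was 0.27 without OFF 2 (0.470).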

How the data were processed

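RNA of 6 libraries was sequenced on a NovaSeq instrument, per the labels. The submitters' processing notes list the build GRCm38, with R 3.6.2 and edgeR as tools. Strand setting, aligner, counting program and release of the annotation were not given in the sources used here. Raw counts by Ensembl gene make up the deposited table. Its 5 summary rows (53.1% to 66.3% of reads) were left out. Of 47729 identifiers 47224 matched GENCODE mouse release 21 (GRCm38).

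Genes were kept by filterByExpr (minimum count 10, total 15), scaled by TMM and compared by the quasi-likelihood test of edgeR (robust; all 6 libraries in 1 fit, 3 residual degrees of freedom, biological coefficient of variation 15.7%). P-values were adjusted by Benjamini-Hochberg over all 15780 genes, and an adjusted p under 0.05 was called. The steps were tested on simulated counts. The numbers of the replicates in the titles are not stated to pair samples. Replicates differed by more than sampling noise (chi-square per degree of freedom 9.90 in WT, 69.5 in ON, 20.1 in OFF).

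Genes, lists and the rule for named genes were chosen with earlier results of these data known. The rule named the 8 genes, every listed gene called in a comparison, 8 fixed genes of the pathway (some of which are not reported here), the 10 genes most alike in pattern and the most abundant marker of each list. Top2a, Rbpj and Sdccag8 were added after their values were seen. Near-identical copies were sought with blastn 2.17.0 in GENCODE transcripts (at least 90% identity over 200 bases). Promoter windows came from RefSeq. Versions were DESeq2 1.42.0, limma 3.58.1, edgeR 4.0.16 and R 4.3.3. Alternatives were other scalings, filters and tests, leaving out each library, the replicate block and fits of the 4 libraries compared; a crossed block was added after seeing the data.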

Additional observations from a re-analysis of the deposited data

How the results depend on the processing

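The number of the 8 genes called was 0 in OFF against ON and in ON against WT under every alternative except the crossed block, which was added after seeing the data and called 1 in each (Hmgcs1 and Sqle). In OFF against WT the 2 calls became 1 with RLE scaling, upper quartile scaling or DESeq2, 0 with a mean CPM of at least 1, limma-voom or the replicate block, 3 with the crossed block (adding Hmgcs1), and 0 to 3 with a library left out. Of 384 values of the 8 genes under 16 alternatives, 341 kept direction and side of the threshold, 16 lost and 6 gained a call, and 21 changed sign, none of them a called value.

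The sign changes of single genes were, for ON against WT, Hmgcs1 with upper quartile scaling (-0.031), Cyp51 with upper quartile scaling (-0.064), a mean CPM of at least 1 (-0.012), limma-voom (-0.0055) and the crossed block (-0.0030), Fdps with no filter (0.026) and limma-voom (0.026) and Sc5d with no filter (0.022), and for OFF against WT Fdps with limma-voom (0.0097). Insig2 changed sign in OFF against ON with no filter (0.041), limma-voom (0.030), the older quasi-likelihood method (6.1e-05), the replicate block (0.021) and the crossed block (0.013), and with no filter in ON (0.026) and OFF (0.066) against WT. Abcg1 did so in OFF against WT with RLE scaling (-0.015), upper quartile scaling (-0.071), a mean CPM of at least 1 (-0.050), DESeq2 (-0.015), the crossed block (-0.0017) and only the 4 libraries (-0.040), and Tprkb in ON against WT with upper quartile scaling (-0.028). With a library left out, values ran for OFF against ON from -0.40 to 0.37 for Fdps, -0.10 to 0.33 for Sc5d, -0.29 to 0.039 for Pmvk, -0.12 to 0.24 for Scap, -0.27 to 0.33 for Insig2, -0.017 to 0.50 for Abcg1, -0.74 to 0.65 for Mki67 and -0.57 to 0.24 for Top2a. For ON against WT they ran from -0.18 to 0.28 for Hmgcs1, -0.31 to 0.17 for Insig1, -0.48 to 0.68 for Fdps, -0.18 to 0.22 for Cyp51, -0.34 to 0.027 for Scap, -0.35 to 0.27 for Insig2, -0.48 to 0.050 for Abcg1 and -0.0093 to 0.14 for Tprkb, and for OFF against WT from -0.54 to 0.62 for Fdps, -0.12 to 0.32 for Sc5d, -0.090 to 0.083 for Insig2 and -0.068 to 0.13 for Abcg1. The cause was not tested.

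Over all genes, calls between OFF and ON numbered 162, and 497 with DESeq2, 99 with limma-voom, 60 with the replicate block, 1210 with the crossed block, 58 with only the 4 libraries and 67 (without WT 2) to 619 (without ON 1) with a library left out. Between ON and WT they numbered 2342, and 1441 with the replicate block, 3755 with the crossed block and 368 (without WT 2) to 2397 (without OFF 2) with a library left out. Between OFF and WT they numbered 1078, and 571 with limma-voom, 663 with the replicate block, 2082 with the crossed block and 223 (without WT 1) to 1602 (without ON 1) with a library left out. Where a group kept a single library, that library was taken to have the spread of the others. Deviations of library 1 from its group mean correlated at 0.077 between WT and ON. They correlated at -0.21 between WT and OFF and -0.20 between ON and OFF. With 2 libraries in each group, these values cannot decide whether the replicate numbers pair samples.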
